A study of Mus musculus with 6 samples.

Results

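Complex I, the NADH:ubiquinone oxidoreductase, is the entry point of the mitochondrial electron transport chain, and its nuclear-encoded parts were examined here as 46 genes out of the 54532 in the deposited table. The genes were chosen by name alone, as every protein-coding entry whose symbol starts with Nduf. Of these, 8 have symbols that start with Ndufaf and encode assembly factors, which help to build the complex but are not part of it. The other 38 are named as subunits, and 36 of them encode structural subunits of complex I. The remaining pair, Ndufa4 and Ndufa4l2, carry a complex I name although the Ndufa4 protein is now assigned to complex IV. A further 5 Nduf entries that are not annotated as protein coding were left out.

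Vascular smooth muscle cells (VSMCs) of the mouse were sequenced as RNA in 6 libraries, 3 labelled Ad-Con and 3 labelled Ad-PDK4. Ad-Con cells had a WT genotype label and received an adenoviral vector with a control plasmid. Ad-PDK4 cells were labelled as pyruvate dehydrogenase kinase 4 overexpression and received an adenoviral vector with a plasmid for that kinase, a mitochondrial enzyme that switches off the pyruvate dehydrogenase complex. According to the study's methods, the cells were mouse aortic smooth muscle cells isolated from abdominal aortas of wild-type mice, both groups were treated with angiotensin II (Ang II) after transduction, and the replicates were biological. The labels mention neither Ang II nor the age of the mice, although the study gives both. By its methods the groups shared the Ang II treatment, whose effect was not analysed here.

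In the assembled enzyme a hydrophilic arm reaches into the matrix and a membrane arm lies in the inner membrane. The N module at the tip of the hydrophilic arm oxidizes NADH, the Q module below it passes electrons to ubiquinone, and the membrane arm pumps protons. A set of core subunits, conserved from bacteria, does the chemistry, and 7 of these core subunits are encoded in the nucleus and 7 by mitochondrial DNA (mtDNA). The other subunits are supernumerary, and the assembly factors join the modules and modify individual subunits.

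Promoters of the 2 members that rose most and the 2 that fell most are shown first, because these genes frame the range of the differences described below. Each sequence is the 250 bases before the RefSeq transcription start on GRCm38.p6, given 5′ to 3′ on the strand of the gene. Ndufaf4 lies at chr4:24897833-24898082 on the plus strand and Ndufaf5 at chr2:140170396-140170645 on the plus strand. Ndufa4 lies at chr6:11907451-11907700 on the minus strand and Ndufa1 at chrX:37191239-37191488 on the minus strand. RefSeq starts need not equal those of the deposited table, and for all of these but Ndufaf4 they differ. Capitals mark a match to the motif of NRF1 (nuclear respiratory factor 1), GCGCA and GCGC with any base between them, which is known from promoters of many respiratory chain genes.
Ndufaf4: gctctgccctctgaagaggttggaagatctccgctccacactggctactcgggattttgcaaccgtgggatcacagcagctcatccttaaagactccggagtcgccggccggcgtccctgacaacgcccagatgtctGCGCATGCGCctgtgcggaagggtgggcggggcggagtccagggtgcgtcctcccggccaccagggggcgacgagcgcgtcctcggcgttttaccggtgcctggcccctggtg
Ndufaf5: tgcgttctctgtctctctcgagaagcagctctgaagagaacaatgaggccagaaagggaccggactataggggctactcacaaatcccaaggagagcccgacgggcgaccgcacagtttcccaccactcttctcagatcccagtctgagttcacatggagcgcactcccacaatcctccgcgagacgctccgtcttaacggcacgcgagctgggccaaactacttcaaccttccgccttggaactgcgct
Ndufa4: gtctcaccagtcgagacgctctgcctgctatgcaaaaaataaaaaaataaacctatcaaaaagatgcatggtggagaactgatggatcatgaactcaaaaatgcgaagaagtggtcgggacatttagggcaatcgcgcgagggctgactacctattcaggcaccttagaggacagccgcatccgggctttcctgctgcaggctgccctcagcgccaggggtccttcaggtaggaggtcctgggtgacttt
Ndufa1: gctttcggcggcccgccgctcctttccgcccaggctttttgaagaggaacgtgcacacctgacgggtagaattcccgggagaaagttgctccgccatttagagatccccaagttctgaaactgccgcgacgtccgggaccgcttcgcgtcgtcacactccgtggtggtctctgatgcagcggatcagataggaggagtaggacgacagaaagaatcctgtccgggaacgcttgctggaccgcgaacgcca

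The motif occurred in Ndufaf4, 113 bases before the start, and in none of the other 3 sequences. RefSeq promoters were found for 40 of the 46 members. The NRF1 motif was in 7 of these 40 (17.5%), against 4.23% of all 27025 genes with a promoter. It was in 1 of the 4 members that rose, 0 of the 11 members with a promoter that fell and 6 of the 25 others. The motif AANATGGC of YY1 was in 6 members (15.0%), against 4.49% of all genes, and 2 of the 6 fell. The motif CCGGAAG, bound by ETS proteins such as GABP, was in 5 members (12.5% against 7.83%), GGGGCGGGG of SP1 was in 5 (12.5% against 11.8%) and TCAAGGTCA of ERR alpha was in 0 of 40 (0.422% of all genes). Both strands were searched. These matches describe the letters of the windows, and binding was not measured. Member promoters had a median GC content of 57.9%, against 52.4% for all genes.

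Values were FPKM, fragment counts divided by the length of the gene and by a library size. The library sizes implied by the values followed median-of-ratios size factors, set over all libraries together (ratio 1 in each), rather than the total reads. Multiplied back by gene length the values gave whole reads, 17588942 to 21861872 per library. The targeted gene goes against the label. The Ad-Con libraries held 679, 642 and 646 reads of Pdk4 and the Ad-PDK4 libraries 490, 455 and 572, with a log2 difference of -0.42 (limma adjusted p = 0.0011). Higher and lower below therefore mean higher or lower under the Ad-PDK4 label than under the Ad-Con label, and overexpression itself was not seen in this table. Whether transcripts of the vector were counted there is not given in the sources used here. Of 7 smooth muscle markers, 4 were under 0.5 FPKM on average, among them Myh11 with 2 to 10 reads, while Acta2 was at 78.0 ± 0.950 FPKM under the Ad-Con label and 36.2 ± 2.40 under the Ad-PDK4 label (mean ± SD, n = 3). Smtn, the next highest, stood at 8.32 and 8.44 FPKM (log2 difference 0.02, limma adjusted p = 0.84), so the summed level of the 7 markers, 86.8 to 88.4 FPKM in Ad-Con and 43.1 to 48.0 in Ad-PDK4, follows Acta2. That of 5 fibroblast markers, led by collagen Col1a1, was 1247 to 1341 and 661 to 734. Of these 5, 3 fell, Dcn rose by 0.83 on the log2 scale (limma adjusted p = 4.0e-04) and Pdgfra had -0.05 (limma adjusted p = 0.54). Of 8 macrophage markers 4 (Ptprc, Tyrobp, C1qa and C1qb) had 0 reads in every library. The sum of these 8, nearly all from Cd68, was 13.3 to 16.4 FPKM in Ad-Con and 3.69 to 5.50 in Ad-PDK4. Csf1r of this list had the other direction at low counts, with 11, 23 and 35 reads in Ad-Con and 56, 62 and 61 in Ad-PDK4. Of 6 endothelial markers Tie1 had 0 reads in every library, and their sum was 0.617 to 0.798 against 0.885 to 1.18 FPKM. Most of this sum was Kdr, at a mean of 0.536 FPKM in Ad-Con and 0.919 in Ad-PDK4 (limma adjusted p = 0.065). Pecam1 (0.101 and 0.0651) and Vwf (0.0585 and 0.0327) had lower means in Ad-PDK4 with overlapping groups. Tek and Cdh5 had at most 4 reads in any library. The part of these marker differences in the complex I results was not tested, and in bulk RNA fewer cells of a type cannot be told apart from less RNA per cell.

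All members but one had at least 43 reads in every library. Ndufa4l2, a relative of Ndufa4 known as a hypoxia-induced gene, had 5, 1 and 1 reads in Ad-Con and 4, 5 and 3 in Ad-PDK4. It stood at 0.109 ± 0.09997 against 0.195 ± 0.0686 FPKM (n = 3), with overlapping groups. It was the lowest member, fell under the limit of 0.5 FPKM on average and was not tested. The highest was Ndufa2, a supernumerary subunit of the N module, at 151 ± 12.7 FPKM in Ad-Con and 150 ± 10.7 in Ad-PDK4 (its gene lies on chromosome 18, 36742332 to 36744557). Its values were 139.7, 165 and 149 in Ad-Con and 162, 142 and 145 in Ad-PDK4, so the groups overlapped.

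The median level of the 38 subunit-named genes was 35.7 FPKM and that of the 8 Ndufaf genes 6.47 FPKM, both per length. Among the 14 lowest of the 46 members were 7 of the 8 Ndufaf genes. The order of levels rests on the gene length the authors used. For 16 members this length was more than 2 times that of a reference transcript, and the ratio went up to 12.4 in Ndufb2. The reference was the shortest protein-coding transcript tagged as principal in the annotation, or the shortest protein-coding one where none was tagged. It can be short, as in Ndufaf7 with 392 bases in 3 exons. Genes such as Ndufb2 and Ndufb7 stand lower in this order than their reference transcript would put them. A comparison of one gene between the groups is not touched by this, because its length is the same in all libraries.

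**Figure D1:**
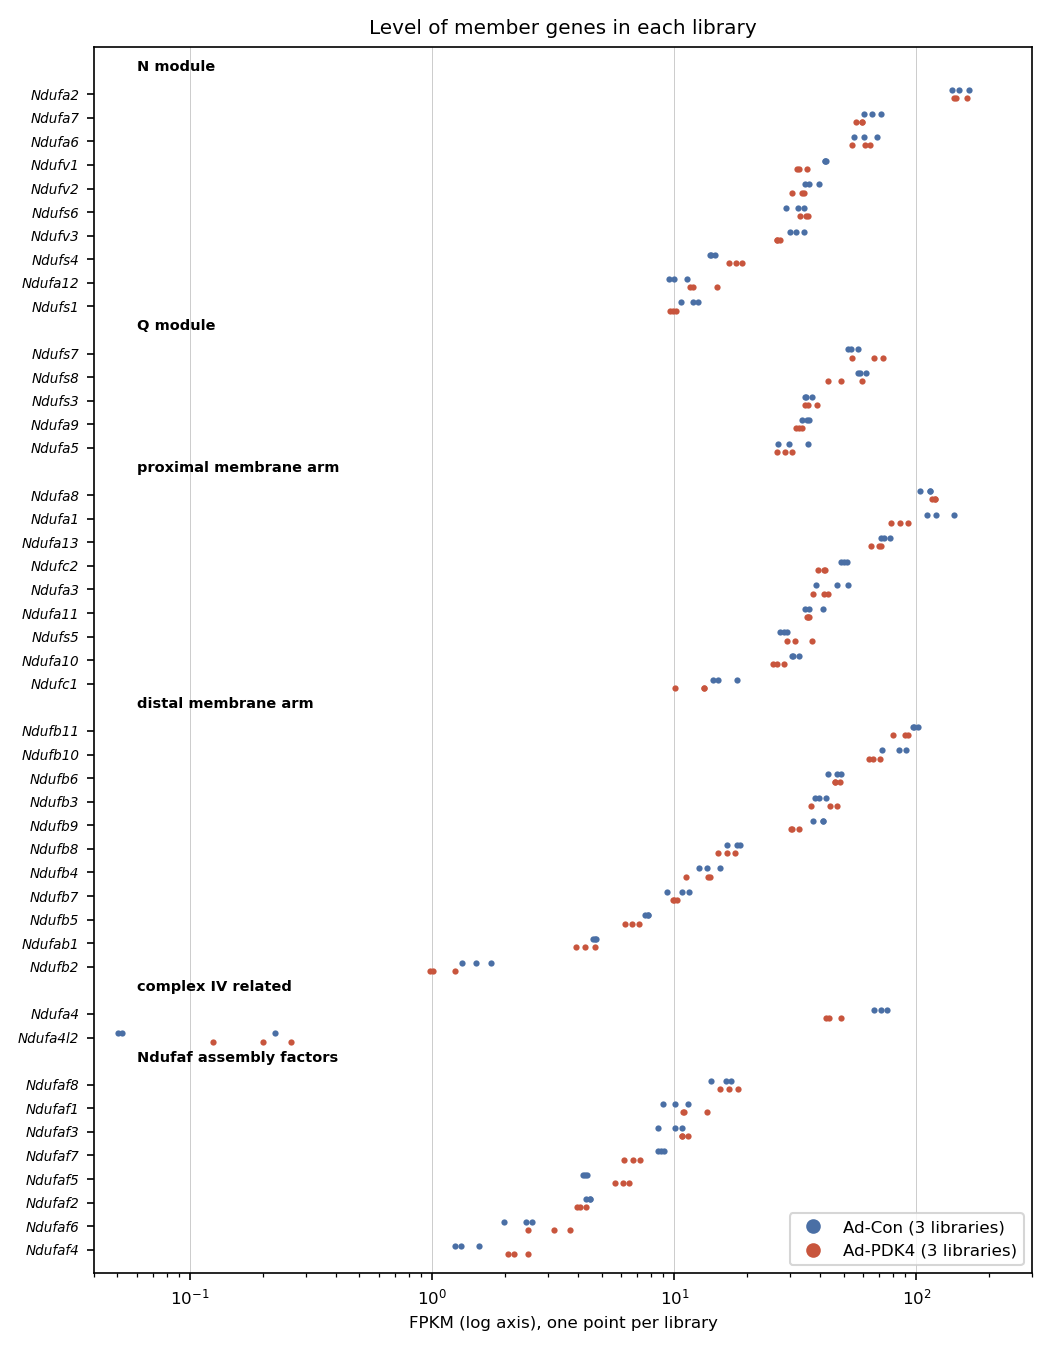
Level of 45 members in each library, as FPKM on a log axis, with the 3 Ad-Con libraries in blue and the 3 Ad-PDK4 libraries in red, grouped by module and ordered by level. Most structural subunits lie to the right of the Ndufaf genes, and for most members the 2 groups lie close together or overlap.

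To ask how the complex I genes differed between the labels, limma was run on log2(FPKM + 0.1) over all 13423 genes with a mean of at least 0.5 FPKM, with Benjamini-Hochberg adjustment over all of them. The 0.1 added makes fold changes of low genes an understatement. Of the 45 members tested, 14 fell, 4 rose and 27 did not pass an adjusted p of 0.05. The counts moved to 10 lower and 5 higher with TPM scaling (33.3% of calls higher, against 22.2%) and to 13 lower and 7 higher with a correction for gene length (35%), and 9 were lower without the filter or without Ad-Con replicate 3. Among all tested genes 42.7% passed, 20.8% lower and 21.8% higher. Among the members the shares were 40.0% in all, 31.1% lower and 8.89% higher, so a similar share passed, with a larger share of falls and a smaller share of rises. No member reached a 2-fold difference in this fit or in any of the 18 alternative settings, against 6.63% of all tested genes. The median log2 fold change of the members was -0.10 (range -0.67 to 0.67), against -0.003 for all tested genes, and 30 of the 45 values were below 0. The 3 libraries of one group lay all above or all below those of the other for 23 members (51.1%), 17 lower and 6 higher. The same held for 54.3% of all tested genes, 26.5% lower and 27.8% higher.

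These differences in share are descriptions. Of 581 protein-coding genes under 1500 bases with a mean of at least 5 FPKM, a class chosen after values were seen, 31.0% fell and 17.7% rose, with a median of -0.09, so falls had about the share seen in the members and rises a larger one. The median length was 1701 bases in the tested members and 1135 in this class, so most tested members lie outside it. Of 43 tested nuclear genes of respiratory complexes II to V, 19 fell and 0 rose (21 at an unadjusted p under 0.05), and their median was -0.17. Their called share was 44.2%, all lower, close to the 42.7% called among all tested genes (20.8% lower and 21.8% higher). Across the 45 tested members the log2 fold change had a Pearson correlation of -0.33 with the log2 mean level and -0.04 with the log2 gene length, a description over genes that share the same 6 libraries.

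**Figure D2:**
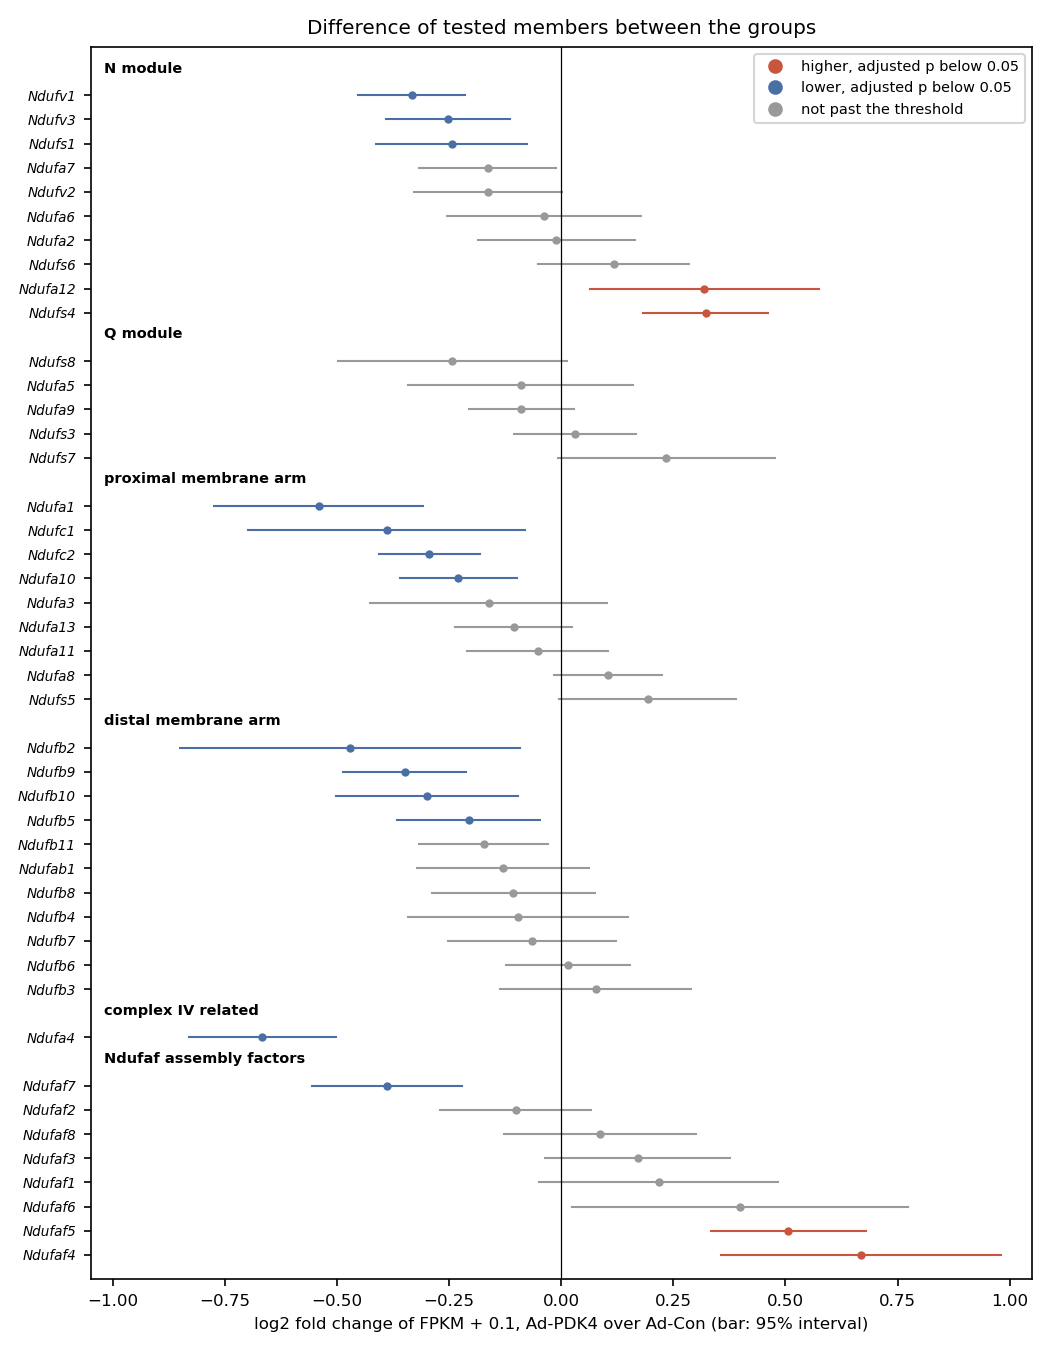
Log2 fold change of FPKM + 0.1, Ad-PDK4 over Ad-Con, for 44 tested members with 95% intervals, blue for lower and red for higher at an adjusted p below 0.05 and grey for the rest. The values run from -0.67 in Ndufa4 to 0.67 in Ndufaf4, and in the membrane arm every coloured point of this fit is on the lower side.

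The nuclear core subunits carry the flavin, the iron-sulphur clusters and part of the quinone site. Ndufv1 binds NADH and the flavin where electrons enter. Its levels were 41.9, 42.4 and 41.8 FPKM in Ad-Con and 32.04, 35.2 and 32.9 in Ad-PDK4. The spread within each group was small beside the gap between them, and the log2 fold change was -0.33 (SE 0.05, limma adjusted p = 0.0015). Ndufs1, the largest subunit and a carrier of iron-sulphur clusters, had 11.98, 10.6 and 12.5 FPKM against 9.85, 9.55 and 10.1. Here too the groups did not overlap, with a log2 difference of -0.24 (limma adjusted p = 0.028), but the call was lost in 7 of 18 alternative settings. It was lost when replicate 1 or 3 of Ad-Con, or 1 or 2 of Ad-PDK4, was left out, with values of -0.25 to -0.20. In limma-voom on the recovered reads Ndufs8 was further called lower and Ndufs7 higher.

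Ndufv2, an iron-sulphur protein paired with Ndufv1, had a log2 difference of -0.16 (limma adjusted p = 0.0999) with groups that did not overlap. Ndufs3 of the Q module had 0.03 (95% interval -0.10 to 0.17, limma adjusted p = 0.70). Ndufs7, which holds the last iron-sulphur cluster before ubiquinone, stood at 52.0, 57.5 and 53.5 FPKM in Ad-Con and 66.6, 72.5 and 54.2 in Ad-PDK4. Its log2 difference of 0.23 (95% interval -0.01 to 0.48, limma adjusted p = 0.11) did not pass in the limma fit on FPKM with all libraries. It passed in limma-voom on the recovered reads. Without Ad-PDK4 replicate 3, the low library, it passed in the fit on FPKM at 0.35 (limma adjusted p = 0.0061). Ndufs8, another iron-sulphur protein of the Q module, had -0.24 (95% interval -0.50 to 0.01, limma adjusted p = 0.11), which passed without Ad-PDK4 replicate 2 at -0.37 (limma adjusted p = 0.0067). Of Ndufs3, 75.7% of the transcript is shared with the pseudogene Gm12251, so its reads may be split between them.

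Of the 10 nuclear subunits of the N module 3 fell (30%), 2 rose (20%) and 5 did not pass, near the shares of all tested genes (20.8% lower and 21.8% higher), with a median of -0.10. Besides Ndufv1 and Ndufs1, Ndufv3, a small supernumerary subunit, fell by 0.25 on the log2 scale (limma adjusted p = 0.011). The rises were in Ndufs4 and Ndufa12. Ndufs4, a supernumerary subunit that stabilizes the N module and is a known Leigh syndrome gene (ENSMUSG00000021764, chromosome 13, 114287795 to 114388258), stood at 14.1, 14.7 and 14.1 FPKM in Ad-Con and 19.0, 16.8 and 18.0 in Ad-PDK4. Every Ad-PDK4 library was above every Ad-Con library, and the means were 14.3 ± 0.351 and 17.9 ± 1.08 FPKM (n = 3), a log2 difference of 0.32 (SE 0.06, 95% interval 0.18 to 0.46, limma adjusted p = 0.0037). Ndufa12, which joins the complex late and takes the place of its paralogue Ndufaf2, had 11.2, 9.98 and 9.46 FPKM against 15.0, 11.6 and 11.9. The Ad-PDK4 group had 1 high library, and the closest values of the groups were 11.2 and 11.6. Its log2 difference of 0.32 (limma adjusted p = 0.049) lost the call in 8 of 18 alternatives, and it came to 0.20 when Ad-PDK4 replicate 1 was left out. The call also failed without Ad-Con replicate 2 or 3 and without Ad-PDK4 replicate 3. Part of the Ndufa12 transcript, 36.2%, is shared with Gm15920. The summed FPKM of the N module was 457.6 ± 30.8 in Ad-Con and 437 ± 19.4 in Ad-PDK4, with overlapping groups.

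Ndufa9 and Ndufa5, the supernumerary members of the Q module, both had -0.09 and overlapping groups. Summed over the 6 genes of the module, the level was 334 to 358 FPKM in Ad-Con and 290 to 326 in Ad-PDK4, and the groups did not overlap.

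Along the membrane arm all calls were falls, except that Ndufa8 rose under TPM scaling, quantile normalization and the correction for gene length, and Ndufs5 under the last of these and without Ad-PDK4 replicate 2. In the proximal part, next to the Q module, 4 of 9 genes fell, 0 rose and 5 did not pass, with a median of -0.16 and 4 genes at an unadjusted p under 0.05. The called share was 44.4%, all lower, close to the 42.7% called among all tested genes (20.8% lower and 21.8% higher). Ndufa1, a small membrane subunit needed early in assembly (ENSMUSG00000016427, chromosome X, 37187588 to 37191163; its promoter is printed above), had 111, 143 and 121 FPKM in Ad-Con and 85.6, 78.4 and 92.3 in Ad-PDK4. Although the Ad-Con libraries were spread, all of them were above the Ad-PDK4 libraries. The means were 125 ± 16.3 and 85.4 ± 6.93 FPKM (n = 3), a log2 difference of -0.54 (SE 0.10, 95% interval -0.77 to -0.31, limma adjusted p = 0.0038). Ndufc2, a membrane subunit that is tightly bound to Ndufc1, fell by 0.29 on the log2 scale (limma adjusted p = 0.0021) and Ndufa10, a subunit with a nucleoside kinase fold, by 0.23 (limma adjusted p = 0.013). Ndufc1 stood at 14.5, 18.1 and 15.2 FPKM against 13.3, 10.0 and 13.3. Its log2 fold change was -0.39 (limma adjusted p = 0.048), and the call was lost in 11 of 18 alternatives, including each of the 6 fits that left out a library (-0.46 to -0.25). Ndufa8 and Ndufs5 had values of 0.10 and 0.19 with all Ad-PDK4 libraries above all Ad-Con libraries, and in the limma fit on FPKM as deposited neither passed.

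The distal part of the membrane arm gave 4 falls and 0 rises among 11 genes, with a median of -0.13 and 5 genes at an unadjusted p under 0.05. The called share was 36.4%, all lower, against 42.7% called among all tested genes (20.8% lower and 21.8% higher). Ndufb9, a subunit of the LYR motif family, fell by 0.35 on the log2 scale (limma adjusted p = 0.0023). The other falls were in Ndufb10 (-0.30), Ndufb5 (-0.21) and Ndufb2 (-0.47), whose calls were lost in 7 of 18, 9 of 18 and 9 of 17 alternatives. Ndufb10 lost it without Ad-Con replicate 2 or 3 or Ad-PDK4 replicate 2 or 3 (at the least -0.23), Ndufb5 without any library but Ad-PDK4 replicate 3 (-0.16), and Ndufb2 without replicate 1 or 3 of Ad-Con or 1 or 2 of Ad-PDK4 (-0.38). In Ndufb2 the levels were low, at 1.75, 1.33 and 1.51 FPKM against 1.01, 0.9747 and 1.24, or 96 to 200 reads. The gap between the groups was 1.24 to 1.33 FPKM at its narrowest, and the limma adjusted p was 0.0497. Ndufb2 and Ndufb5 overlap other genes on the opposite strand, Braf and Mrpl47 among them, and whether counting used strand is not given in the sources used here. The 7 genes that did not pass had log2 fold changes of -0.17 (Ndufb11) to 0.08 (Ndufb3). Among them was Ndufab1, the mitochondrial acyl carrier protein, at -0.13.

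Summed over the 36 structural subunits, the level was 1600, 1777 and 1670 FPKM in Ad-Con and 1579, 1494 and 1531 in Ad-PDK4. All 3 Ad-PDK4 libraries were below all 3 Ad-Con libraries, and the ratio of the means was 0.912. The closest libraries, 1579 and 1600, differed by less than any pair of libraries within a group. The ratio was 0.954 for the N module, 0.902 for the Q module, 0.891 for the proximal and 0.898 for the distal membrane arm.

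Ndufa4, the subunit assigned to complex IV, had the largest fall of any member (ENSMUSG00000029632, chromosome 6, 11900292 to 11907497). It stood at 67.0, 75.7 and 71.7 FPKM in Ad-Con and 43.6, 42.5 and 48.9 in Ad-PDK4. No Ad-PDK4 library reached the lowest Ad-Con library. The means were 71.4 ± 4.36 and 45.0 ± 3.45 FPKM (n = 3), which is a fall of 0.67 on the log2 scale (SE 0.07, 95% interval -0.83 to -0.50, limma adjusted p = 2.2e-04), and over the 18 alternatives it ranged from -0.73 to -0.61, past the threshold in each. With Ndufa4 left aside, the 36 structural subunits of complex I gave 12 falls and 2 rises. Of the 7 core subunits 42.9% were called, all lower. Of the 29 supernumerary ones 37.9% were called, 31.0% lower and 6.90% higher. Both called shares were close to the 42.7% of all tested genes (20.8% lower and 21.8% higher).

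**Figure D3:**
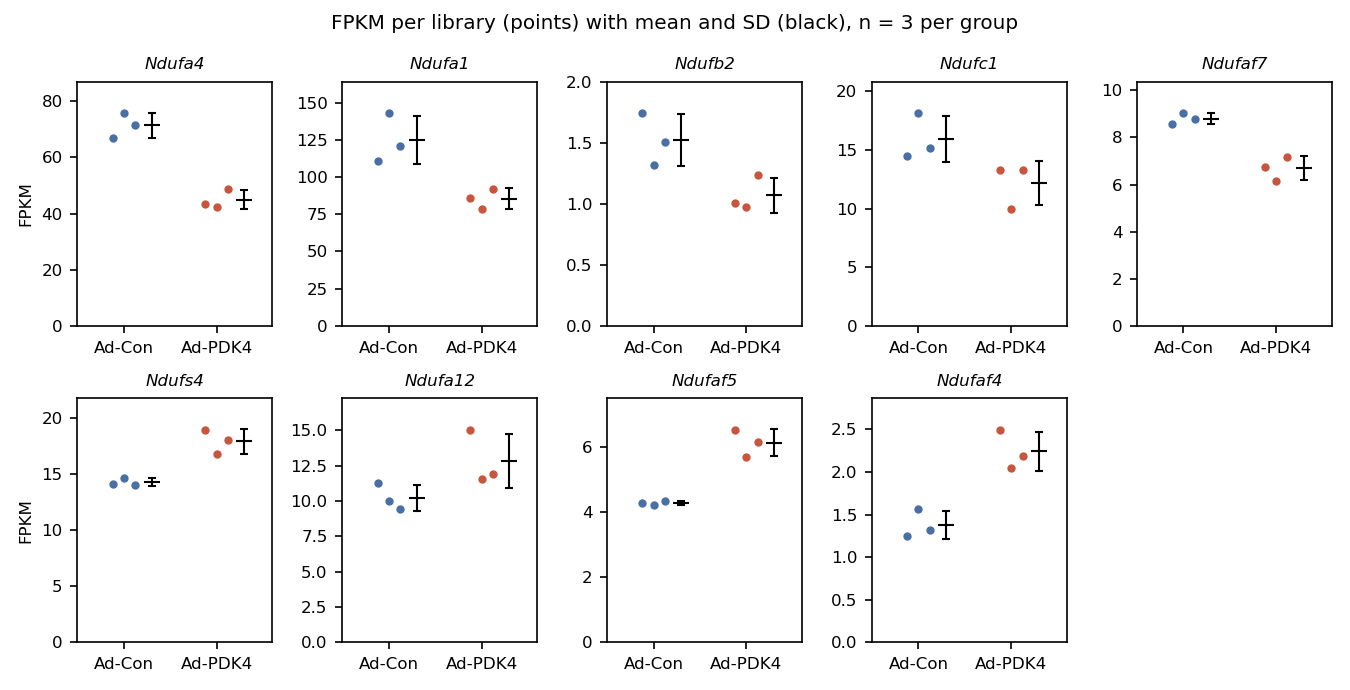
FPKM in each library (points) with the mean and SD of each group (black, n = 3) for 5 of the members with the largest falls and for the 4 that rose, on axes that start at 0. In each panel the Ad-Con and Ad-PDK4 points do not overlap, with the narrowest gaps in Ndufa12, Ndufb2 and Ndufc1.

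Of the 8 Ndufaf assembly factors 2 rose (25%), 1 fell (12.5%) and 5 did not pass, against 21.8% higher and 20.8% lower among all tested genes, so the called share of 37.5% was close to the background of 42.7%. Their median was 0.19, and 6 of 8 values were above 0. Ndufaf4, which acts with Ndufaf3 on the early Q module intermediate (ENSMUSG00000028261, chromosome 4, 24898083 to 24905001; the gene with the NRF1 motif printed above), had 99, 107 and 93 reads in Ad-Con and 177, 140 and 188 in Ad-PDK4. These are 1.25, 1.56 and 1.31 FPKM against 2.49, 2.05 and 2.18, so the groups were well apart at a low level. The log2 fold change was 0.67 (SE 0.13, 95% interval 0.36 to 0.98, limma adjusted p = 0.0052). Ndufaf5, which hydroxylates an arginine of Ndufs7 (ENSMUSG00000027384, chromosome 2, 140170649 to 140203689), stood at 4.26, 4.202 and 4.35 FPKM in Ad-Con and 6.51, 5.69 and 6.15 in Ad-PDK4. Its Ad-Con libraries were almost equal and all Ad-PDK4 libraries lay above them, with means of 4.27 ± 0.0734 and 6.12 ± 0.414 FPKM (n = 3) and a log2 difference of 0.51 (SE 0.07, 95% interval 0.33 to 0.68, limma adjusted p = 0.0012).

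Ndufaf7 went the other way. It is a mitochondrial arginine methyltransferase, and it had 8.57, 9.02 and 8.79 FPKM in Ad-Con and 6.76, 6.17 and 7.19 in Ad-PDK4. The groups did not overlap, and the log2 fold change was -0.39 (SE 0.07, limma adjusted p = 0.0036). Ndufaf8, the partner that stabilizes Ndufaf5, had 0.09 (limma adjusted p = 0.49) and Ndufaf3, the partner of Ndufaf4, 0.17 (limma adjusted p = 0.16). Ndufaf6, needed for an early step on the membrane arm, had 0.40 (95% interval 0.02 to 0.77, limma adjusted p = 0.083) with overlapping groups, and passed at 0.55 without Ad-PDK4 replicate 1 (limma adjusted p = 0.028). Ndufaf1, a member of the MCIA complex that builds the membrane arm, had 0.22 (limma adjusted p = 0.17). Ndufaf2, the paralogue of Ndufa12, had -0.10 (limma adjusted p = 0.30). The summed level of the 8 genes, 52.5, 58.5 and 60.1 FPKM against 63.0, 59.0 and 64.0, overlapped between the groups.

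Assembly factors outside the Nduf names were examined as a list of 12, of which 11 were found and tested. Of these 4 rose (36.4%, against 21.8% of all tested genes), 0 fell and 7 did not pass, a called share close to the background of 42.7%. The median was 0.21, with 6 values above 0 and 5 below, and 6 were at an unadjusted p under 0.05. Nubpl, which delivers iron-sulphur clusters to the complex, was the lower one of these 6, at -0.29 (limma adjusted p = 0.082). Tmem126a, a membrane protein that acts on the distal arm, stood at 12.7, 12.9 and 14.6 FPKM in Ad-Con and 20.6, 19.1 and 21.8 in Ad-PDK4, a log2 difference of 0.61 (SE 0.08, limma adjusted p = 4.9e-04). Its neighbour and relative Tmem126b, of the MCIA complex, had -0.01 (limma adjusted p = 0.96), and the groups overlapped. Timmdc1, which binds the proximal membrane intermediate, rose by 0.46 (limma adjusted p = 7.3e-04) and Ecsit, an MCIA protein also known from Toll-like receptor signalling, by 0.37 (limma adjusted p = 0.0053). Tmem186, another MCIA protein, rose by 0.29 (limma adjusted p = 0.048), a call lost in 9 of 17 alternatives and without any library but Ad-Con replicate 3 (at the least 0.19). The remaining MCIA protein on the list, Acad9, had -0.18. The summed level of the 11 genes was 96.7 to 98.2 FPKM in Ad-Con and 103 to 111 in Ad-PDK4. Of the 3 matrix proteases that degrade unassembled subunits (Clpp, Clpx and Lonp1), 0 passed in the limma fit, with 1 of 3 at an unadjusted p under 0.05. Clpp had -0.16 (limma adjusted p = 0.074) and was called lower in 4 of 18 alternatives, Lonp1 had 0.17 (limma adjusted p = 0.11) and was called higher in 2 of 18, limma-voom among them, and Clpx had 0.10 and was called in 0.

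The core subunits encoded by mtDNA differed far more than the nuclear ones. Of the 7 mt-Nd genes 6 fell and 0 rose (85.7%, against 42.7% called among all tested genes). In this fit all 6 fell by more than 2-fold and all 6 were at an unadjusted p under 0.05, and the median was -1.21. mt-Nd1, mt-Nd2, mt-Nd4, mt-Nd5 and mt-Nd6 had log2 fold changes of -1.15, -1.21, -1.41, -1.19 and -1.22. The smallest falls of mt-Nd1, mt-Nd2 and mt-Nd5 over the 18 alternatives were -0.74, -0.87 and -0.97, under 2-fold. These 3 genes kept their calls in all 18. mt-Nd3 had -2.32 on 65 to 994 reads, with 140.3, 36.8 and 53.1 FPKM in Ad-Con, and its call was lost in 3 of 18 alternatives, among them those without Ad-PDK4 replicate 1 or 2 (-2.73 to -1.77 over the 6 fits that left out a library). mt-Nd4l, at 17.5, 18.6 and 16.5 against 18.7, 6.35 and 6.86 FPKM, had -0.90 (limma adjusted p = 0.16), where Ad-PDK4 replicate 1 stood at the Ad-Con level, and without that library it fell by 1.40 on the log2 scale (limma adjusted p = 4.6e-05). The summed mtDNA core subunits were at 5.61, 4.95 and 5.64 times the sum of the 36 nuclear subunits in Ad-Con and at 2.51, 2.12 and 3.04 times in Ad-PDK4.

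**Figure D4:**
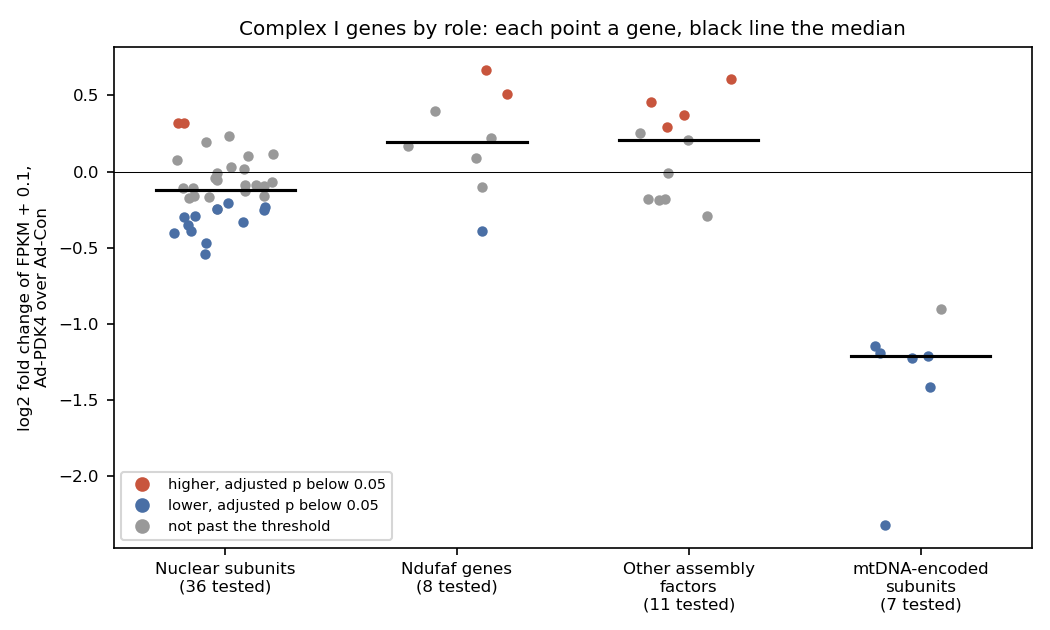
Log2 fold change of FPKM + 0.1, Ad-PDK4 over Ad-Con, for complex I genes by role, where each point is a gene, its colour gives the call and the black line is the median of the role. The medians are below 0 for the 36 nuclear subunits, 0.19 for the 8 Ndufaf genes, 0.21 for 11 other assembly factors and -1.21 for the 7 mtDNA-encoded subunits.

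Finally, factors known to act on promoters of respiratory chain genes were read from the same fit. Of the 7 tested, 2 rose, 1 fell and 4 did not pass, a called share of 42.9%, close to the 42.7% of all tested genes. Ppargc1a, the coactivator PGC-1 alpha, stood at 1.62, 1.45 and 1.90 FPKM in Ad-Con and 0.925, 0.745 and 0.817 in Ad-PDK4, a log2 difference of -0.91 (SE 0.16, limma adjusted p = 0.0030). Pprc1, a related coactivator, moved by about the same amount in the other direction, from 4.39, 4.58 and 3.99 to 7.68, 9.02 and 7.90 FPKM, or 0.91 (SE 0.09, limma adjusted p = 1.3e-04). Gabpb1, the beta subunit of GABP, rose by 0.35 (limma adjusted p = 0.042), a call lost in 7 of 17 alternatives, among them those without replicate 1 or 3 of Ad-Con or 2 or 3 of Ad-PDK4 (at the least 0.25). Nrf1 itself had -0.06, Gabpa -0.04, Yy1 0.11 and Esrra 0.06, and none of these passed the test. Ppargc1b was under 0.5 FPKM and was not tested.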

How the data were processed

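RNA was measured in 6 libraries of mouse VSMCs, grouped by their treatment labels, with replicate numbers from their titles. The deposited unit is FPKM, with library sizes that follow median-of-ratios size factors over all 6 libraries. The authors' processing notes name CASAVA 1.8, fastp, HISAT2 2.0.5, featureCounts 1.5.0-p3 and DESeq2 1.20.0. These notes give GRCm39, but 98.3% of the 54495 identifiers found in GENCODE mouse release M21 had GRCm38 coordinates there, so positions are on GRCm38. Of the members, 91.3% had the same coordinates. The labels and the study's methods name different library kits, which the values do not settle. FPKM times the deposited gene length gave whole reads for 100% of non-zero values (tolerance 0.01 reads), and 1 read in a gene of 1 kb was worth 0.0453 to 0.0571 FPKM. This sets the precision by counting error only.

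The test was limma 3.58.1 in R 4.3.3 on log2(FPKM + 0.1) with trend and robust moderation, no covariates and Benjamini-Hochberg adjustment over 13423 genes with a mean of at least 0.5 FPKM, called at an adjusted p below 0.05. The script was tested on simulated data. Since the unit is FPKM, no count model was the main test. The settings varied were the pseudocount (1 or 0.01), no filter, a minimum of 5 FPKM, rescaling to TPM with and without mtDNA genes, median of ratios, quantile normalization, a loess correction for gene length, moderation without trend and robust, a replicate block, limma-voom on the recovered reads, and leaving out each library in turn.

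The members, gene lists, tests and alternatives were chosen with earlier results of these data known. Genes named are the 6 largest rises and falls among called members (4 rises existed), the nuclear core subunits, the Ndufaf and mt-Nd genes, Ndufa4, Ndufa4l2, the other assembly factors, proteases and promoter factors that passed, the highest and lowest members and Pdk4, with other members given by their log2 fold change. Of the members this rule takes in, 1 is counted in the totals but is not reported here. Uncalled genes of the added lists (such as Tmem126b, Acad9 and Nrf1), AA467197 and the marker genes printed lie outside this rule and were named after their values were seen. Shared sequence was found with blastn 2.17.0 (at least 100 bases at 95% identity or more) on GENCODE transcripts. Promoters came from RefSeq on GRCm38.p6. Protein sequences were not used here.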

Additional observations from a re-analysis of the deposited data

How the results depend on the processing

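Over the 18 alternatives, 12 of the 18 called members passed in every one in which they were tested, 9 of them lower (among them Ndufa1, Ndufa4, Ndufc2, Ndufv1, Ndufb9, Ndufv3, Ndufa10 and Ndufaf7) and 3 higher (Ndufs4, Ndufaf4 and Ndufaf5), and no called member changed sign. The other 6 lost the call somewhere, and 11 of the 27 uncalled members passed somewhere. A change of sign was seen in 7 uncalled members, with values of -0.19 to 0.10. The median of the members stayed between -0.15 and -0.06, while that of all tested genes stayed between -0.04 and 0.04. Without the filter, a fit over more genes, 9 members fell (5179 of all genes passed, 20.6%, and 1230 also at 2-fold). With the correction for gene length 7 rose and 13 fell (35% of calls higher, against 22.2%), and with TPM 5 rose and 10 fell (33.3%). The causes of these shifts were not tested. Leaving out 1 library gave 3 to 5 higher and 9 to 12 lower members, a median of -0.12 to -0.07 and 4544 to 5381 called genes, and the 9 came without Ad-Con replicate 3. Counts of all called genes were 4043 with a minimum of 5 FPKM and 6302 with limma-voom, against 5726. Median of ratios gave 5727, but it is no separate check, because the deposited values already carry that scaling.

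The replicate numbers did not pair the libraries: same-numbered libraries had correlations of -0.046, -0.031 and -0.001 in their deviations from the group means, and 0 of 6 correlated best with its own number. With the replicate block 5 members rose, 10 fell and 5385 genes passed, and mt-Nd3 lost its call. Depth limits the lowest members most. Ndufa4l2 had at most 5 reads per library and no difference was detectable in it, and Ndufaf6, at 43 to 87 reads, had a 95% interval of 0.02 to 0.77.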

Other observations

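AA467197 is the mouse homologue of human C15orf48, whose protein is related to Ndufa4 and is known from inflamed cells. It was looked up after the fall of Ndufa4 had been seen. It had 48, 35 and 53 reads in Ad-Con and 71, 65 and 97 in Ad-PDK4, or 2.02 ± 0.390 against 3.33 ± 0.291 FPKM (n = 3). All 3 Ad-PDK4 libraries were above all 3 Ad-Con libraries, and it rose by 0.71 on the log2 scale (SE 0.15, 95% interval 0.37 to 1.046, limma adjusted p = 0.0058), where Ndufa4 fell by 0.67 on the log2 scale. The call held in all 17 alternatives in which the gene was tested, with values of 0.53 to 0.85. At these levels Ndufa4 remained far above it in every library, at 42.5 to 48.9 FPKM in Ad-PDK4.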
